A study of Mus musculus with 12 samples.

Results

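The 8 genes described here, Pde8a, Pde8b, Pde4a, Pde4b, Pde4d, Pde7a, Pde7b and Pde10a, encode phosphodiesterases that hydrolyse the second messenger cyclic AMP (cAMP). They were found by symbol among the 37310 genes of the count table, and all 8 were among the 16630 genes with enough counts to be tested. The set was chosen by earlier values of these data: Pde8b was selected on its difference between the lines without PMA, and the other 7 as enzymes of the same kind. The values of Pde8b in that comparison, and in those that reuse the same libraries, are therefore given as a description with no test. Its difference under PMA was tested, in other libraries of the same lines. The main fit took the spread from all 12 libraries, so this test is not fully independent of the values that chose the gene.

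Total RNA depleted of ribosomal RNA was sequenced from mouse cell lines derived from embryonic fibroblasts, in 4 groups of 3 libraries that the design text calls biological triplicates. The groups were the line labelled as an HP1γ (Cbx3) knockout with PMA, the line given HP1γ back (HPg) with PMA, the untreated knockout-labelled line and the untreated HPg line. PMA (phorbol 12-myristate 13-acetate) activates protein kinase C and was given at 100 nM in DMSO for 30 min. What the untreated cells received as vehicle is not stated in the labels. The series asks how the transcriptome of these cells depends on HP1γ, a heterochromatin protein, in normal growth and under PMA. Each genotype is represented by 1 line, so that line and genotype cannot be told apart, and p-values measure only the spread between cultures of these lines.

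cAMP is made by adenylyl cyclases, acts through protein kinase A, the exchange factors Epac and cyclic nucleotide channels, and is removed by phosphodiesterases. The PDE4, PDE7 and PDE8 families are specific for cAMP, whereas PDE10A hydrolyses both cAMP and cGMP. PDE4 enzymes are the targets of rolipram, and PDE8 enzymes bind cAMP with high affinity and are insensitive to the general inhibitor IBMX. In fibroblasts, PDE4 enzymes are known as a major route of cAMP breakdown.

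Total counts ranged from 111458145 to 159929347 per library. Cbx3, the gene labelled as knocked out, averaged 31.8 ± 4.37 CPM (counts scaled by library total and TMM factor) in KO-labelled cells with PMA and 38.6 ± 4.66 CPM in HPg cells with PMA, and 36.5 ± 2.2 CPM in untreated KO-labelled cells and 38.7 ± 2.45 CPM in untreated HPg cells (SD, n = 3 each). Neither difference passed the test, with adjusted p = 0.269 with PMA and 0.838 without it (0.0876 and 0.704 with the replicate number as a block). Whole-gene counts of Cbx3 therefore do not check the label, and the line is called KO-labelled throughout. The 11 fibroblast markers summed to between 9630 and 16500 CPM in every library, and 10 were tested. Col1a1 had group means of 3780 to 5320 CPM, whereas Lum had 0.0432 to 0.174 CPM. Thy1 was not tested and was at 0 in untreated HPg cells. None of the 10 was called between the lines. With the block, Col3a1 was called higher in KO-labelled cells with PMA (adjusted p = 0.016) and without (0.0232). The block also called Col1a1 higher with PMA (0.0344) and Vim lower without it (0.0264). Of 8 epithelial markers 5 were tested, and the list summed to between 11.7 and 12.3 CPM in KO-labelled cells with PMA, 6.3 and 6.95 CPM in HPg cells with PMA, 13.6 and 14.2 CPM in untreated KO-labelled cells, and 8.01 and 9.57 CPM in untreated HPg cells. Cldn4 was at 0 in both HPg groups and Krt18 in untreated HPg cells. Of the 5 tested, Dsp alone was called (higher in KO-labelled cells, log2 fold change 2.71 with PMA, adjusted p = 0.0293; 2.75 without, adjusted p = 0.0345), and it averaged 4.72 ± 1.24 CPM in KO-labelled cells with PMA and 0.717 ± 0.433 CPM in HPg cells with PMA, and 5.86 ± 2.26 CPM in untreated KO-labelled cells and 0.877 ± 0.716 CPM in untreated HPg cells. The median log2 fold change of the 5 was 0.26 with PMA and 0.18 without, and Krt5 had -0.89 without PMA (adjusted p = 0.574). Krt8, at group means of 0.0489 to 0.379 CPM, had 1.906 with PMA (adjusted p = 0.459, 0.0454 with the block). Without PMA it had 2.465 (adjusted p = 0.45, 0.133 with the block). Of 6 endothelial markers 4 were tested, and Vwf was called higher in KO-labelled cells with PMA (log2 fold change 1.97, adjusted p = 0.0394; 1.66 without, adjusted p = 0.0952, and 0.000699 in the blocked fit), whereas Kdr had -0.60 with PMA (adjusted p = 0.651) and -1.17 without (adjusted p = 0.415, 0.0311 blocked). The endothelial list summed to between 2.27 and 9.9 CPM in a library, and no marker of it was at 0 in a group. Of 6 muscle markers Des alone was tested and was called higher with PMA (1.76, adjusted p = 0.0328; 0.94 without, adjusted p = 0.258), and Myod1 was at 0 in every group. The muscle list summed to between 1.14 and 1.33 CPM in KO-labelled cells with PMA, 0.326 and 0.571 CPM in HPg cells with PMA, 1.02 and 1.38 CPM in untreated KO-labelled cells, and 0.363 and 0.897 CPM in untreated HPg cells. None of the 4 tested neural or 2 tested blood and immune markers was called between the lines. The part of these markers in the results was not tested. The fewest genes with a count, 17822, were in untreated HPg library 2; the other libraries had 19759 to 20656. Pde8b shares 447 exonic bases with an antisense transcript on the opposite strand, and Pde7a shares 48 with another. The strand setting of the counting is not stated, so reads of the antisense transcripts could not be told apart.

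The start regions are shown of Pde8b, of Pde4a and Pde10a, which had the next highest log2 fold changes between the lines in both conditions, and of Pde8a, the paralog of Pde8b. The windows run from 250 bases before to 50 bases after a transcript start in RefSeq (GRCm38.p6, another build than the mm9 of the counts), 5′ to 3′ on the gene's strand. CpG dinucleotides are in capitals. RefSeq gives Pde8b 5 windows in 2 clusters, of which 1 from each is shown. Of the 3 windows of Pde4a and the 2 of Pde10a, the one with the most CpG is shown; Pde8a has 1 window.

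Pde8b, downstream cluster, chr13:95223001-95223300, minus strand: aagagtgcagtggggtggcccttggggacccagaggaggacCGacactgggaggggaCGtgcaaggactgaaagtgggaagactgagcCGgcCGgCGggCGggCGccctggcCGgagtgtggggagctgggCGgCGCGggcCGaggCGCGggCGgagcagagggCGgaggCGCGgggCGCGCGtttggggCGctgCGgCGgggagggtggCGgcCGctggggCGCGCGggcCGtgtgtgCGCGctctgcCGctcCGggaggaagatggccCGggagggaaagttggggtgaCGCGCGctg
Pde8b, upstream cluster, chr13:95250240-95250539, minus strand: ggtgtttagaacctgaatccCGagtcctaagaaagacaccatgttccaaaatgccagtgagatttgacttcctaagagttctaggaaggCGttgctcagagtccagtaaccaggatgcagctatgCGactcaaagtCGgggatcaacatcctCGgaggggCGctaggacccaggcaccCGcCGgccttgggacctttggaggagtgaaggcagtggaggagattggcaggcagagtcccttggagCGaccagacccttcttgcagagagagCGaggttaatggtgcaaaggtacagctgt
Pde8a, chr7:81213015-81213314, plus strand: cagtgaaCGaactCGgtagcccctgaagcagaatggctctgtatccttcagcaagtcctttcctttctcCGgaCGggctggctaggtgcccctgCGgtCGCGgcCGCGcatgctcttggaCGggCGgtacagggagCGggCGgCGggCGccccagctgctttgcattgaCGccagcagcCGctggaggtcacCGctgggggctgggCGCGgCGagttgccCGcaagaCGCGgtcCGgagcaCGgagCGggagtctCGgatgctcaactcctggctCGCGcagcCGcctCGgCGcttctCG
Pde4a, chr9:21165464-21165763, plus strand: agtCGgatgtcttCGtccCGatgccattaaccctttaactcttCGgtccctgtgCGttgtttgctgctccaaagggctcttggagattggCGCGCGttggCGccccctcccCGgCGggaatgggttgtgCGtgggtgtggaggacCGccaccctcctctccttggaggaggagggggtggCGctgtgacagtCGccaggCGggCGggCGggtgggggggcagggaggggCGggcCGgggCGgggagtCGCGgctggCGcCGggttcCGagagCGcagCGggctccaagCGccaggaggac
Pde10a, chr17:8801495-8801794, plus strand: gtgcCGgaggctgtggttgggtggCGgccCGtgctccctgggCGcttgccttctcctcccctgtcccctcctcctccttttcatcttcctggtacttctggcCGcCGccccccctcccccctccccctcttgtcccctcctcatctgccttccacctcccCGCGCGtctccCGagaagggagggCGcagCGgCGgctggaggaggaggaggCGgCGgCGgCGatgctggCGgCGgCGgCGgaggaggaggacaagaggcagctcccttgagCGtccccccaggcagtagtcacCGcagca

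The first Pde8b window held 38 CpG at 76.3% GC, whereas the second held 10 CpG at 54.3% GC. The windows of Pde8a (34 CpG, 68.7% GC), Pde4a (29 CpG, 70.0% GC) and Pde10a (23 CpG, 71.3% GC) shown were also above the median GC of 52.7% over 32851 windows. The windows of Pde4a not shown held 13 CpG at 64.0% GC and 7 CpG at 55.0% GC, and that of Pde10a held 5 CpG at 56.7% GC. Windows were available for 7 of the 8 members, 17 in all; Pde7a had none. Neither the cAMP response element TGACGTCA nor the AP-1 element TGACTCA or its complement TGAGTCA occurred in any of the 17 windows, on either strand. These letters occurred in 1.79% and 5.2% of all windows, and their lack here says nothing of the factors that bind them.

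PDE8B, a cAMP-specific phosphodiesterase of the high-affinity PDE8 family, had more RNA in the KO-labelled line. With PMA, Pde8b (ENSMUSG00000021684, chromosome 13) had 9.754, 7.211 and 7.161 CPM in KO-labelled libraries 1, 2 and 3, against 2.82, 1.941 and 2.252 CPM in HPg libraries 1, 2 and 3. Without PMA, it had 10.83, 9.514 and 10.41 CPM in KO-labelled libraries, against 2.337, 2.172 and 2.383 CPM in HPg libraries. Every KO-labelled library was above every HPg library, with and without PMA. The raw counts behind these values were 779 to 1118 in KO-labelled cells with PMA and 276 to 436 in HPg cells with PMA, and 1209 to 1463 in untreated KO-labelled cells and 259 to 314 in untreated HPg cells. In bulk RNA, more cells with the transcript and more RNA per cell cannot be told apart.

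Under PMA the difference was 3.44-fold, a log2 fold change of 1.78 (SE 0.185, 95% interval 1.38 to 2.18), with adjusted p = 0.000728 in the edgeR quasi-likelihood test over all 16630 genes (5.78e-06 with the replicate number as a block). The size of this change ranked 271 among the 16630 genes. Leaving out each library in turn gave log2 fold changes from 1.62 to 1.93, with adjusted p from 0.00142 to 0.00811. Without PMA, the difference that chose the gene was 4.46-fold (log2 fold change 2.16, SE 0.187), ranking 197. The ratios between same-numbered libraries were 3.46, 3.72 and 3.18 with PMA, and 4.63, 4.38 and 4.37 without it.

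Pde8a, which encodes the other PDE8 enzyme, was not called between the lines. Pde8a (ENSMUSG00000025584, chromosome 7) had 3.952, 5.666 and 4.578 CPM in KO-labelled libraries with PMA, against 4.217, 6.084 and 3.795 CPM in HPg libraries with PMA. It had 2.867, 2.262 and 3.429 CPM in untreated KO-labelled libraries, against 3.711, 2.902 and 4.44 CPM in untreated HPg libraries. The groups overlapped with and without PMA, and neither difference passed the test (log2 fold change 0.01, 95% interval -0.52 to 0.54, adjusted p = 0.99 with PMA; -0.37, interval -0.90 to 0.16, adjusted p = 0.552 without). Untreated, Pde8a was lower in the KO-labelled library of each of the 3 numbered pairs, at ratios of 0.77, 0.78 and 0.77.

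The paralogs can be set beside each other per length. Per kilobase of exon, the ratio of Pde8b to Pde8a averaged 1.22 ± 0.429 in KO-labelled cells with PMA (0.876 to 1.7) and 0.363 ± 0.126 in HPg cells with PMA (0.22 to 0.46). Without PMA it averaged 2.53 ± 0.405 in KO-labelled cells (2.09 to 2.89) and 0.439 ± 0.0732 in HPg cells (0.369 to 0.515; SD, n = 3 each). Pde8b was the more abundant of the pair in all 3 untreated KO-labelled libraries, and Pde8a in all 6 HPg libraries. This ratio contains the value that chose Pde8b and is given without a test.

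**Figure D1:**
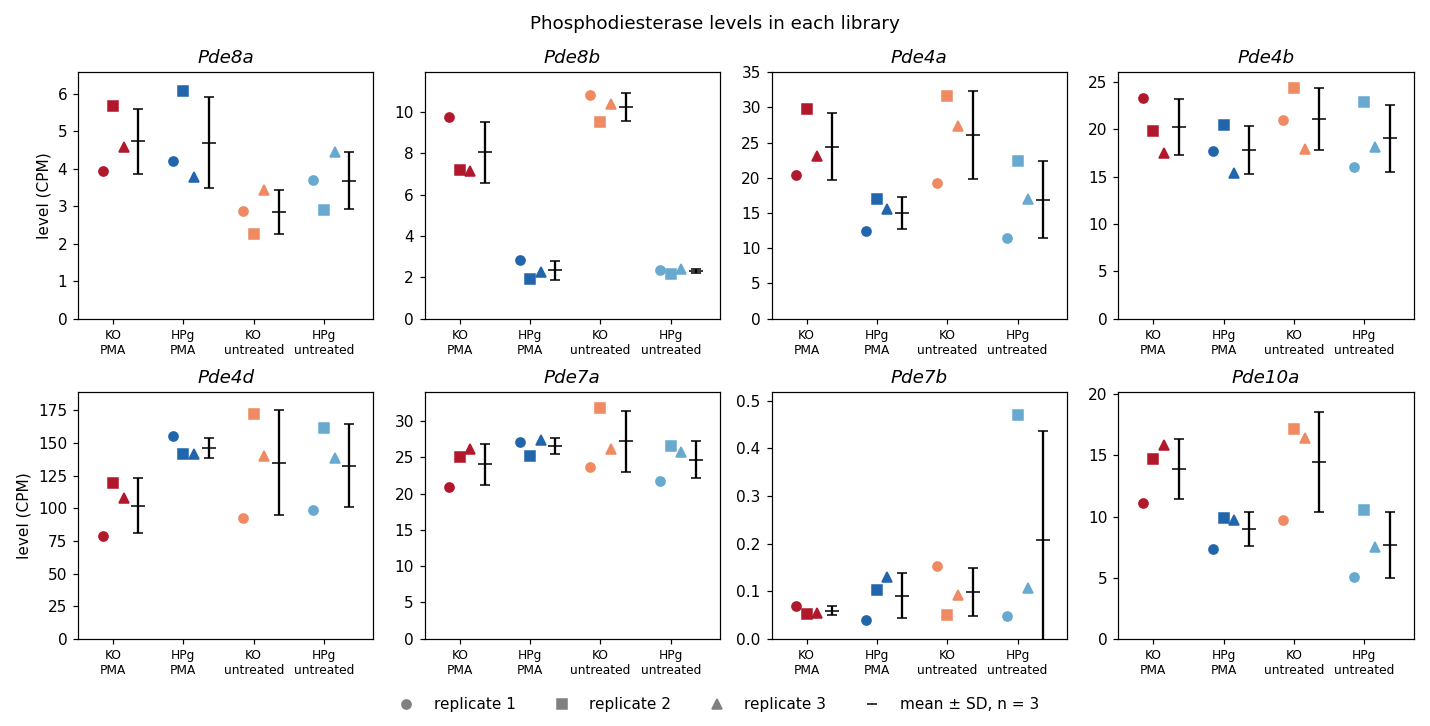
Level of each of the 8 phosphodiesterase genes in CPM (each panel has its own linear axis) in the 12 libraries, with 1 point per library and the mean ± SD (n = 3) of each group. The 6 KO-labelled libraries of Pde8b sit between 7.161 and 10.83 CPM, above the 6 HPg libraries at 1.941 to 2.82 CPM, while the other panels show overlap between lines in at least one condition.

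PDE4 enzymes carry regulatory regions that place them in signalling complexes, and Pde4a had a higher level in the KO-labelled library of every numbered pair. Pde4a (ENSMUSG00000032177, chromosome 9) had 20.41, 29.77 and 23.14 CPM in KO-labelled libraries with PMA, against 12.47, 16.98 and 15.52 CPM in HPg libraries with PMA. It had 19.27, 31.61 and 27.33 CPM in untreated KO-labelled libraries, against 11.46, 22.32 and 16.98 CPM in untreated HPg libraries. The groups did not overlap with PMA and overlapped without it. The log2 fold change was 0.71 (SE 0.247, 1.63-fold) with PMA, with adjusted p = 0.152, and 0.62 (SE 0.246, 1.54-fold) without PMA, with adjusted p = 0.263. With the replicate number as a block, the same differences were 0.70 (adjusted p = 0.000926) and 0.64 (adjusted p = 0.00185).

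Pde4d, which encodes the most abundant of the 8 per kilobase, did not differ between the untreated lines beyond the spread. Pde4d (ENSMUSG00000021699, chromosome 13) had 78.7, 119.3 and 108 CPM in KO-labelled libraries with PMA, against 155.5, 141.8 and 141.8 CPM in HPg libraries with PMA. It had 92.32, 172.6 and 140 CPM in untreated KO-labelled libraries, against 98.54, 161.3 and 138.5 CPM in untreated HPg libraries. All 3 KO-labelled libraries lay below all 3 HPg libraries with PMA, whereas the untreated groups overlapped. The log2 fold change with PMA was -0.52 (SE 0.233, 0.697-fold, adjusted p = 0.259), or -0.57 with adjusted p = 0.0187 in the blocked fit. Without PMA it was 0.02 (95% interval -0.48 to 0.53, adjusted p = 0.981). In KO-labelled cells with PMA, untreated KO-labelled cells and untreated HPg cells, the library with the lowest Pde4d was the one with the highest share of counts in Rpph1, Rn7sk and Rmrp, at 19.25%, 16.84% and 14.29%. The same libraries were also the lowest of their groups for Pde4a, Pde7a and Pde10a. In untreated HPg cells the share in library 3 was close behind, at 14.07%. HPg cells with PMA differed. There library 1 had the lowest share (9.69%) and the highest Pde4d, but the lowest Pde4a (12.47 CPM) and Pde10a (7.374 CPM). Library 3 of that group had the highest share (16.2%) and the highest Pde7a (27.32 CPM). The part of that share in the values of these genes was not tested.

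Pde4b (ENSMUSG00000028525, chromosome 4), whose product is the PDE4 enzyme best known from inflammatory cells, had 17.48 to 23.36 CPM in KO-labelled libraries with PMA and 15.37 to 20.44 CPM in HPg libraries with PMA. It had 17.91 to 24.38 CPM in untreated KO-labelled libraries and 16.07 to 22.92 CPM in untreated HPg libraries. The groups overlapped, with log2 fold changes of 0.18 with PMA (95% interval -0.20 to 0.56, adjusted p = 0.632) and 0.15 without (-0.23 to 0.53, adjusted p = 0.773).

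The PDE7 enzymes are cAMP-specific and insensitive to rolipram. Pde7a (ENSMUSG00000069094, chromosome 3) had 20.9, 24.98 and 26.21 CPM in KO-labelled libraries with PMA, against 27.1, 25.22 and 27.32 CPM in HPg libraries with PMA. It had 23.66, 31.84 and 26.13 CPM in untreated KO-labelled libraries, against 21.76, 26.53 and 25.72 CPM in untreated HPg libraries. Pde7a was lower in the KO-labelled library of all 3 pairs with PMA and higher in all 3 without it, but neither difference passed the test (log2 fold change -0.14, adjusted p = 0.63 with PMA; 0.14, adjusted p = 0.715 without), nor did the difference between them (-0.29, SE 0.194, adjusted p = 1).

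Pde7b (ENSMUSG00000019990, chromosome 10) was close to the detection limit. Its raw counts were 8, 7 and 6 in KO-labelled libraries with PMA, against 6, 16 and 16 in HPg libraries with PMA, and 17, 7 and 13 in untreated KO-labelled libraries, against 6, 56 and 14 in untreated HPg libraries. The 56 counts of untreated HPg library 2 decide its untreated log2 fold change of -1.08 (SE 0.773, adjusted p = 0.589), which was 0.33 without that library.

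PDE10A, known for its abundance in the striatum, had more RNA in the KO-labelled library of every numbered pair. Pde10a (ENSMUSG00000023868, chromosome 17) had 11.14, 14.67 and 15.84 CPM in KO-labelled libraries with PMA, against 7.374, 9.878 and 9.719 CPM in HPg libraries with PMA. It had 9.73, 17.2 and 16.41 CPM in untreated KO-labelled libraries, against 5.078, 10.51 and 7.476 CPM in untreated HPg libraries. The groups did not overlap with PMA and overlapped without it. The log2 fold change was 0.63 (SE 0.272) with PMA, with adjusted p = 0.243, and 0.91 (SE 0.273, 1.88-fold) without PMA, with adjusted p = 0.138. The blocked fit gave 0.63 (adjusted p = 0.00658) and 0.92 (adjusted p = 0.000807). Without PMA, Pde10a was also called by DESeq2 (adjusted p = 0.041) and when HPg library 2 was left out (log2 fold change 1.20, adjusted p = 0.0455).

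**Figure D2:**
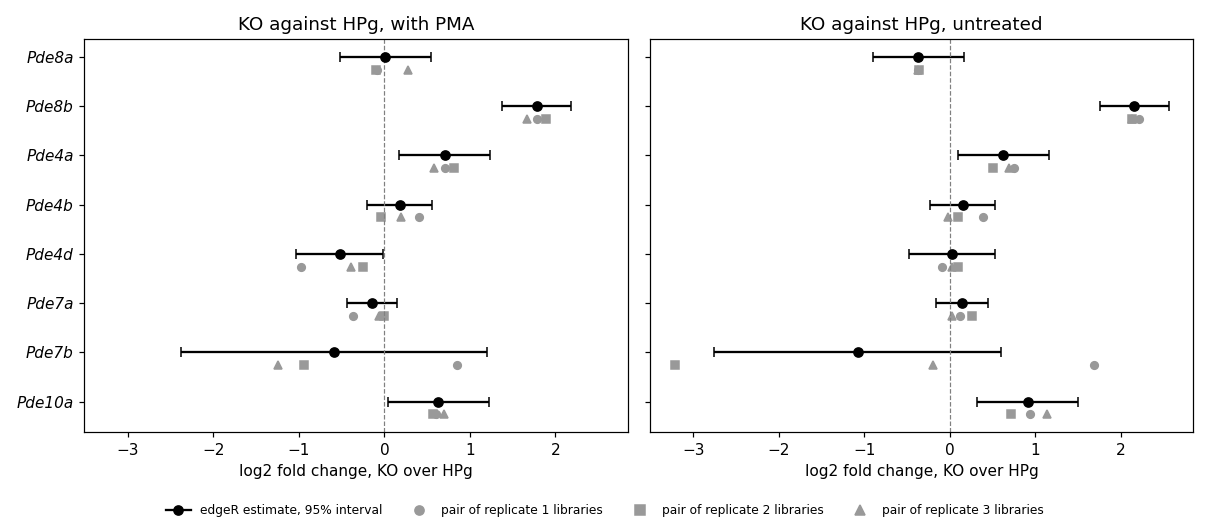
Log2 fold change of KO-labelled over HPg cells for each member, with PMA and untreated, from the edgeR fit of all 12 libraries; black points and bars are the estimate and its 95% interval, grey marks are the ratios of same-numbered libraries, and the untreated Pde8b value is a description without a test. Pde8b stands at 1.78 with PMA and 2.16 untreated, Pde4a and Pde10a lie between 0.62 and 0.91, and Pde4d lies at -0.52 with PMA.

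Between the lines, 1 of the 8 members was called with PMA (Pde8b, higher), where 2.47% of all genes tested were called and 1.29% were called higher. With PMA, 4 of the 8 (Pde8b, Pde4a, Pde4d and Pde10a) had an unadjusted p below 0.05, as had 18.4% of all genes. All counts with PMA include Pde8b, which was chosen on the untreated difference between the same lines. The counts without PMA leave it out. Set beside the shares of all genes, the counts with PMA are therefore raised by that choice. Without PMA, 0 of the 7 members other than Pde8b were called by edgeR, where 1.32% of all genes were called; 2 of the 7 had an unadjusted p below 0.05, as had 14.3% of all genes, and DESeq2 called 1 of the 7, where it called 4.15% of all genes. With the replicate number as a block, 3 members were called higher (Pde8b, Pde4a and Pde10a) and 1 lower (Pde4d) with PMA, where 9.49% of all genes were called higher and 9.09% lower, 18.6% in all. Without PMA the block gave 2 of 7 higher (Pde4a and Pde10a) and 0 lower, where 12.5% of all genes were called and 7.08% were called higher. With PMA, 3 members lay higher without overlap (Pde8b, Pde4a and Pde10a) and 1 lower (Pde4d), where 12.5% of all genes lay higher and 12.4% lower without overlap, 25% in all. The median log2 fold change of the 8 members was 0.10 with PMA and 0.15 without, beside 0.01 over all genes in both. Both medians include Pde8b, which was chosen on its difference between the lines, so they show no shift of the other members.

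Compared per kilobase of exon, so that genes can be set beside each other, Pde4d had the highest level in every group, with 8.49 CPM per kb in KO-labelled cells with PMA, 12.2 in HPg cells with PMA, 11.2 in untreated KO-labelled cells and 11.1 in untreated HPg cells. Pde7a, Pde4a and Pde4b followed in every group, between 1.69 and 3.51 CPM per kb. Pde8b ranked 5 of 8 in KO-labelled cells, at 1.37 CPM per kb with PMA and 1.74 untreated, and 7 of 8 in HPg cells, at 0.398 with PMA and 0.391 untreated. Its libraries overlapped those of Pde4b, the next above, in both KO-labelled groups, and those of Pde8a, the next below, in KO-labelled cells with PMA. In untreated HPg cells it overlapped Pde10a, the next above. Pde7b was the lowest in each group, at 0.0079 CPM per kb in untreated KO-labelled cells and 0.0167 in untreated HPg cells.

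As a share of the summed per-kilobase level of all 8 members, Pde8b made up 6.9 ± 2.18% in KO-labelled cells with PMA and 1.85 ± 0.345% in HPg cells with PMA. Without PMA it made up 7.64 ± 2.13% in KO-labelled cells and 2.0 ± 0.488% in HPg cells (SD, n = 3 each). Pde4d made up 41.5 ± 3.75% in KO-labelled cells with PMA and 56.6 ± 2.6% in HPg cells with PMA, and 46.7 ± 4.73% in untreated KO-labelled cells and 54.6 ± 2.19% in untreated HPg cells. RNA shares do not give enzyme activity, which was not measured here.

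**Figure D3:**
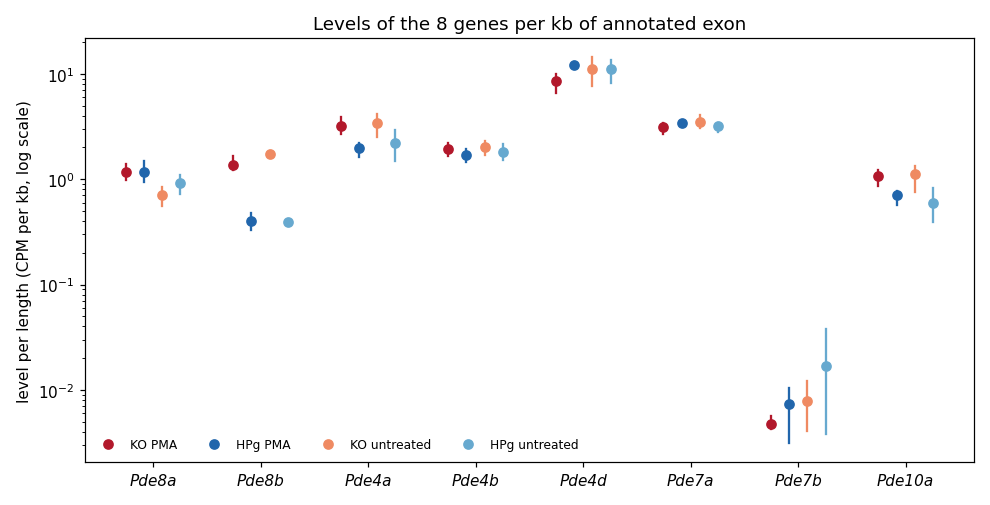
Level of each member per kilobase of exon (CPM per kb, log axis) in the 4 groups, where points are means of 3 libraries and lines run from the lowest to the highest library. Pde4d is highest in every group, at a mean of 8.49 to 12.2, and Pde8b lies near Pde4b in KO-labelled cells and below Pde8a in HPg cells.

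None of the members tested for it was called for PMA. In KO-labelled cells 0 of the 7 members other than Pde8b were called by edgeR (1 had an unadjusted p below 0.05; DESeq2 called 0). Of all genes 4.44% were called there by edgeR, 15.9% had an unadjusted p below 0.05, and DESeq2 called 7.35%. In HPg cells 0 of 7 were called (0 had an unadjusted p below 0.05; DESeq2 called 0). Of all genes 3.45% were called there by edgeR, 17.4% had an unadjusted p below 0.05, and DESeq2 called 6.97%. The largest change among the members above the detection limit was that of Pde8a in KO-labelled cells, which averaged 4.73 ± 0.867 CPM with PMA and 2.85 ± 0.584 CPM untreated (SD, n = 3 each). Its log2 fold change was 0.73 (SE 0.246, 95% interval 0.20 to 1.26, 1.66-fold) with adjusted p = 0.136, and 0.0502 in the blocked fit. The PMA libraries lay above the untreated ones without overlap, as in 10.6% of all genes, and the PMA library was higher in 3 of 3 pairs, at ratios of 1.38, 2.5 and 1.34. In HPg cells Pde8a averaged 4.70 ± 1.22 CPM with PMA and 3.68 ± 0.77 CPM untreated (log2 fold change 0.35, adjusted p = 0.52), and the ratios were 1.14, 2.1 and 0.85.

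Pde8b averaged 8.04 ± 1.48 CPM in KO-labelled cells with PMA and 10.3 ± 0.673 CPM in untreated KO-labelled cells, and 2.34 ± 0.446 CPM in HPg cells with PMA and 2.30 ± 0.111 CPM in untreated HPg cells. Its PMA ratios within numbered pairs of KO-labelled libraries were 0.90, 0.76 and 0.69. Pde4d was lower with PMA in all 3 KO-labelled pairs, at ratios of 0.85, 0.69 and 0.77, and its groups overlapped (log2 fold change -0.40, SE 0.233, adjusted p = 0.455); in HPg cells its log2 fold change was 0.14 (adjusted p = 0.834). The PMA response did not differ between the lines for any of the 7 members by edgeR, with adjusted p = 1 for each, 0 with an unadjusted p below 0.05 and 0 called by DESeq2. Over all genes, 0% were called for this difference by edgeR, 328 (1.97%) had an unadjusted p below 0.05, and DESeq2 called 1 (0.004%).

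**Figure D4:**
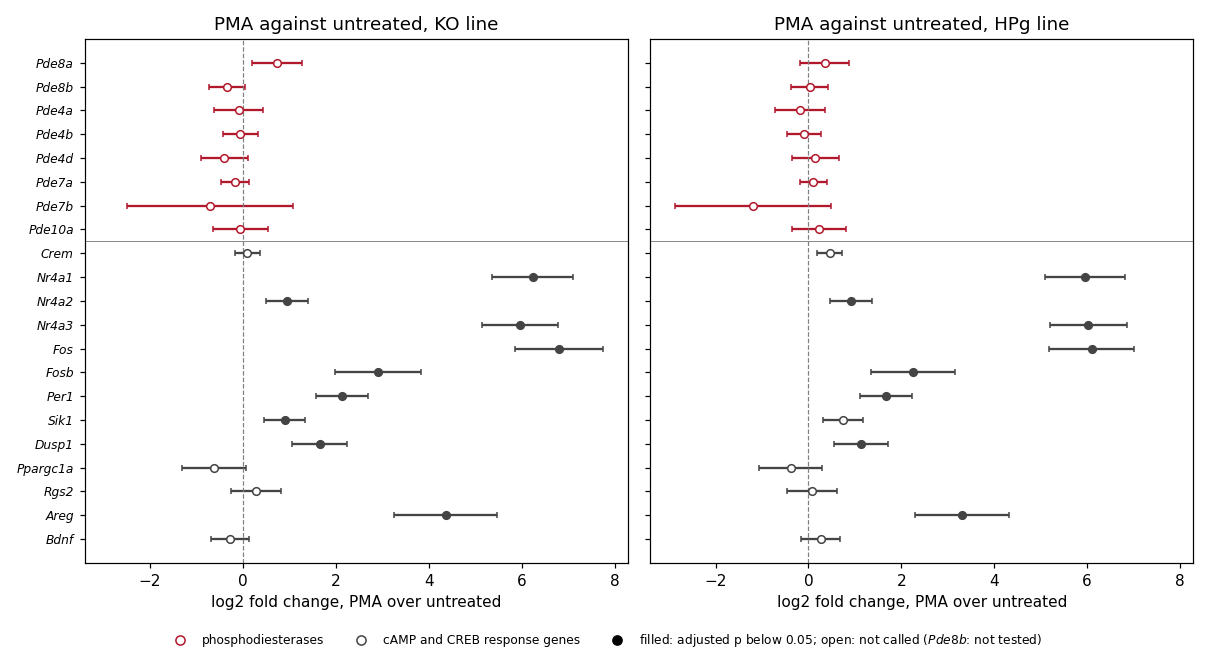
Log2 fold change of PMA-treated over untreated cells for each member (red) and each tested gene of the cAMP and CREB response list (grey) in KO-labelled and in HPg cells, from the edgeR fit; bars are 95% intervals, filled points were called and open points were not (Pde8b was not tested). The Pde8a value in KO-labelled cells is 0.73, and the intervals of all other values of the members tested include 0. The values of Fos, Nr4a1 and Nr4a3 lie between 5.96 and 6.81 in both lines.

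The other cyclic nucleotide phosphodiesterases had 9 of 15 genes in the test (Pde2a is not analysed here). None of the 9 was called between the lines by edgeR with PMA or without it, and the blocked fit called none. Without HPg library 2 of the PMA-treated groups, Pde1b, a calmodulin-dependent enzyme, was called higher with PMA (log2 fold change 3.51, adjusted p = 0.0451). It was 1.73 with all libraries (adjusted p = 0.262). Pde1b was close to the detection limit, with raw counts of 13 to 29 in KO-labelled libraries with PMA and 1 to 20 in HPg libraries with PMA. The highest of the 9 was Pde5a, which hydrolyses cGMP, with 123 ± 14.3 CPM in KO-labelled cells with PMA and 126 ± 18.6 CPM in HPg cells with PMA, and 136 ± 29.3 CPM in untreated KO-labelled cells and 118 ± 13.4 CPM in untreated HPg cells. Pde6d, the delta subunit that carries prenylated proteins, followed at 16.1 to 19.5 CPM as group means. Pde1a, Pde1b, Pde3b, Pde6a, Pde6g and Pde9a were tested as well. Pde6h, the inhibitory gamma subunit known from cone photoreceptors, rose with PMA in KO-labelled cells, with 0.541 ± 0.0664 CPM (56 to 69 counts) with PMA and 0.0685 ± 0.0148 CPM (7 to 12 counts) untreated, a log2 fold change of 2.96 (SE 0.416, adjusted p = 0.00146). In HPg cells Pde6h had a log2 fold change of 0.77 (adjusted p = 0.339), and the difference between the lines was 2.19 (SE 0.56, adjusted p = 1).

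Upstream and downstream of these enzymes, 81 of 105 listed genes of cAMP signalling were tested: the phosphodiesterases just described, cyclases, G protein alpha subunits, receptors, protein kinase A and its anchors, other effectors, CREB factors and response genes. With PMA, 0 were higher and 3 lower in KO-labelled cells (3.7%), and without PMA 0 were higher and 1 lower (1.23%), shares to be read beside the 2.47% and 1.32% of all genes. With the block, 13 were higher and 11 lower with PMA, where 18.6% of all genes were called, and 7 higher and 8 lower without it, where 12.5% of all genes were called. The median log2 fold change of the list was 0.01 with PMA and 0.10 without.

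Adcy1, a calcium-stimulated adenylyl cyclase that makes cAMP, was lower in KO-labelled cells in both conditions. It had 4.118, 5.35 and 4.845 CPM in KO-labelled libraries with PMA, against 8.37, 10.98 and 9.507 CPM in HPg libraries with PMA, and 4.883, 5.5 and 4.126 CPM in untreated KO-labelled libraries, against 8.829, 13.8 and 9.427 CPM in untreated HPg libraries. The groups did not overlap, and the log2 fold change was -1.01 with PMA (adjusted p = 0.0249) and -1.14 (SE 0.201) without (adjusted p = 0.0201). Rapgef4, which encodes the cAMP-activated exchange factor Epac2, averaged 3.25 ± 0.648 CPM in KO-labelled cells with PMA and 8.37 ± 1.22 CPM in HPg cells with PMA (log2 fold change -1.36, adjusted p = 0.0335). Untreated it had a log2 fold change of -1.26 with adjusted p = 0.0601 (0.000932 in the blocked fit). Ppargc1a, a transcriptional coactivator induced by cAMP in liver, averaged 1.46 ± 0.41 CPM in KO-labelled cells with PMA and 4.26 ± 0.458 CPM in HPg cells with PMA (log2 fold change -1.54, adjusted p = 0.03), and untreated its log2 fold change was -1.29 (adjusted p = 0.0773, 0.00165 in the blocked fit). The calls of Adcy1, Rapgef4 and Ppargc1a with PMA were lost in the fits that left out any 1 library of the PMA-treated groups other than HPg library 2, where adjusted p reached 0.144; the untreated call of Adcy1 was lost without KO-labelled library 1 or 3 or HPg library 3, with adjusted p up to 0.107.

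With PMA, 11 of the 81 genes were called higher and 1 lower in KO-labelled cells (14.8%), where 4.44% of all genes were called, and 9 higher and 1 lower in HPg cells (12.3%), where 3.45% were. With the block, 12 were higher and 5 lower in KO-labelled cells and 14 higher and 5 lower in HPg cells, where 13.4% and 14.8% of all genes were called. The genes of the cAMP and CREB response list, which the protein kinase C route also induces, made up most of them: 9 of 13 were higher in KO-labelled cells (median log2 fold change 1.66) and 8 of 13 in HPg cells (median 1.14). Nr4a1, an orphan nuclear receptor, averaged 810 ± 160 CPM in KO-labelled cells with PMA and 10.8 ± 2.94 CPM in untreated KO-labelled cells, and 532 ± 257 CPM in HPg cells with PMA and 8.54 ± 2.24 CPM in untreated HPg cells. Fos, the AP-1 subunit, averaged 302 ± 101 CPM in KO-labelled cells with PMA and 2.70 ± 1.29 CPM in untreated KO-labelled cells, and 143 ± 40.3 CPM in HPg cells with PMA and 2.10 ± 0.656 CPM in untreated HPg cells. Nr4a2, Nr4a3, Fosb, Per1, Dusp1 and Areg were also called higher in both lines, and Sik1, a kinase that restrains CREB coactivators, in KO-labelled cells (log2 fold change 0.90, adjusted p = 0.025). The call of Sik1 was lost without KO-labelled PMA library 2 or 3 or untreated library 1 or 3 (adjusted p up to 0.108), and that of Nr4a2 in KO-labelled cells without PMA library 1 or 3 or untreated library 1 or 3 (up to 0.103). In HPg cells the call of Nr4a2 was lost without PMA library 1 or 3 or untreated library 1 or 3 (up to 0.119), that of Fosb without untreated library 1 (0.0502), and that of Dusp1 without any 1 of the 6 libraries (0.0582 to 0.138).

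Around Pde8b, no tested gene was called. Of the 3 nearest protein-coding genes on each side, 4 were tested (Wdr41, Tbca, Zbed3 and Aggf1), and none was called with PMA or without it, also in the blocked fit. Wdr41, 1.1 kb away, had a log2 fold change of -0.05 with PMA and 0.13 without. The genes with the pattern most like Pde8b, by Pearson r of log2 CPM over the 12 libraries among 13724 genes, were Ccdc122 (r = 0.981), Foxred2 (0.978), Itga11 (0.972), Parp9 (0.97) and Zfp583 (0.969), where the libraries share the 2 lines. Among the members, Pde4a and Pde10a followed each other most (r = 0.93), then Pde4d and Pde7a (0.87), whereas Pde8a and Pde8b gave -0.33; these values describe 12 libraries that share lines, treatments and depth.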

How the data were processed

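RNA was measured in 12 libraries. Per the labels' protocols these were directional, paired-end and depleted of ribosomal RNA; the deposited table gives gene counts, and its values are whole and not scaled by the authors. The submitters' processing notes name STAR 2.5.0a, cutadapt 1.11, Subread, featureCounts 1.4.6-p3 and the build mm9. They leave the annotation release, the strand setting and the counting unit (read or fragment) unstated.

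Genes were kept by filterByExpr (minimum count 10, minimum total 15). Differences were tested with edgeR 4.0.16 (R 4.3.3), a robust quasi-likelihood F-test with TMM factors, all 12 libraries in one fit with a coefficient per group, and Benjamini-Hochberg adjustment over 16630 genes; called means adjusted p below 0.05. The 5 comparisons were line with and without PMA, PMA in each line, and their interaction. DESeq2 1.42.0 was an alternative, with other scaling, other filters, only the groups compared, a replicate block and each library left out. CPM per kb uses the exon union of GENCODE M21, on GRCm38. An exact permutation of 3 against 3 libraries cannot go below 0.1. Libraries of 1 group differed by more than sampling noise (chi-square per degree of freedom 104.1 to 689.2), so each counted as 1 replicate. Depth floors and counting intervals are not printed; means carry the SD over 3 libraries.

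The members, lists and tests were chosen with earlier results of these data known. The PMA response of Pde8b reuses libraries on which it was chosen and is also left untested, which is stricter than the design first written. The text names all members, Cbx3, tested members of the other phosphodiesterase list, called genes of the cAMP lists, and the 5 genes most like Pde8b. The labels number the replicates without saying what a number means. Same-numbered libraries resembled each other: deviations from group means correlated at 0.159 to 0.558 in all 18 same-numbered pairs, and at -0.517 to 0.163 in the 36 others. The share of all genes that agree in direction in every numbered pair is not given here. Such agreement of a member is therefore a description only. The main fit does not use this pairing, whereas the fit with the replicate number as a block does. The calls of Pde4a and Pde4d between the lines, and that of Pde10a with PMA, rest on that choice. Untreated, Pde10a was also called without the block, by DESeq2 (adjusted p = 0.041) and by edgeR without HPg library 2 (adjusted p = 0.0455). That the main fit did not call Pde4a, Pde10a and Pde4d does not show that the lines are alike. Of the cAMP lists, 1 called gene is not reported here by name.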

Additional observations from a re-analysis of the deposited data

How the results depend on the processing

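The call of Pde8b under PMA held in all alternatives run. With the replicate number as a block, members called became 2 of 7 between the untreated lines and 4 of 8 with PMA, and stayed at 0 in the other comparisons; DESeq2 gave 1 in the untreated lines. Leaving out 1 library gave 0 to 1 in the untreated lines, the 1 being Pde10a without HPg library 2, 1 with PMA, and 0 elsewhere.

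Over all genes, calls between the untreated lines numbered 219, against 2083 with the block, 745 by DESeq2, 12 with only the groups compared and 46 to 329 with 1 library left out, lowest without KO-labelled library 3. With PMA they numbered 411, against 3090 with the block, 1134 by DESeq2 and, with 1 library left out, 60 to 573, highest without HPg library 2. For PMA in KO-labelled cells they numbered 739, against 2221 with the block, 1249 by DESeq2 and 295 to 604 with 1 library left out, and in HPg cells 574, against 2462 with the block, 1151 by DESeq2, 222 with only the groups compared, and 244 to 332 with 1 library left out. Scaling by library size only moved the median of all genes for PMA in KO-labelled cells to -0.142 and the split of its calls to 307 higher and 424 lower, against 468 and 271; between the lines with PMA the split was 163 and 217, against 215 and 196. It left uncalled Sik1 in KO-labelled cells (adjusted p = 0.0526), Nr4a2 in both lines (0.056 each) and Adora2a in HPg cells (0.0622). With no low-count filter, Adora2a in HPg cells (0.0554) and 1 gene not named here lost their calls. With only the groups compared, Adcy1 between the untreated lines (0.118), Nr4a2 (0.102) and Adora2a (0.147) in HPg cells and the same unnamed gene lost theirs, and a filter of 1 CPM on the mean removed Pde6h.

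Some values of members changed sign, most of them near 0; those of Pde7b were -1.08 between the untreated lines and -1.20 for PMA in HPg cells with all libraries. Scaling by library size only gave -0.056 for Pde8a between the lines with PMA, -0.01 for Pde8b with PMA in HPg cells and -0.052 for the Pde4b difference in PMA response; no low-count filter gave -0.009 for Pde8a between the lines with PMA. With 1 library left out, the log2 fold change between the untreated lines ranged from -0.202 to 0.223 for Pde4d and from -1.55 to 0.332 for Pde7b, and with PMA from -0.142 to 0.235 for Pde8a. For PMA in KO-labelled cells it ranged from -0.26 to 0.077 for Pde4a, -0.168 to 0.064 for Pde4b and -0.264 to 0.095 for Pde10a. For PMA in HPg cells it ranged from -0.125 to 0.149 for Pde8b, -0.388 to 0.077 for Pde4a, -0.2 to 0.062 for Pde4b, -0.032 to 0.305 for Pde4d and -1.666 to 0.214 for Pde7b. For the difference in PMA response it ranged from -0.17 to 0.295 for Pde4a, -0.123 to 0.15 for Pde4b and -0.923 to 0.957 for Pde7b. None of these was called, and the cause was not tested. Counts of 6 to 56 limit Pde7b.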

Other observations

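Adora2a, an adenosine receptor coupled to Gs, the G protein that stimulates adenylyl cyclases, was called higher with PMA in both lines. It averaged 1.35 ± 0.0925 CPM in KO-labelled cells with PMA and 0.469 ± 0.0807 CPM in untreated KO-labelled cells (log2 fold change 1.53, edgeR adjusted p = 0.0172), and 1.77 ± 0.399 CPM in HPg cells with PMA and 0.734 ± 0.275 CPM in untreated HPg cells (1.27, adjusted p = 0.0464; SD, n = 3 each). In KO-labelled cells the call was lost without any 1 library except PMA library 1 (adjusted p up to 0.0712). In HPg cells it was lost without any 1 library (0.0527 to 0.153).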
